A study of Mus musculus with 74 samples.

Results

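The regions described here are the broad domains of H3K9me3 in mouse cumulus cells (CC), follicle cells whose nuclei were injected into enucleated oocytes for somatic cell nuclear transfer (SCNT). H3K9me3 is the trimethylation of lysine 9 on histone H3. A domain was an autosomal peak of the CC list that spanned more than 10000 bp from its start to its end. There were 1893 such domains among 141728 autosomal CC peaks. They made up 1.34% of the peaks and 39.7 Mb of the 212 Mb of autosomal CC peak length, or 18.7% of it. The domains were selected on their width in CC, so their width and their signal in CC are given as a description. The other 9 peak lists did not choose them. In those lists 2 quantities were followed, namely the share of a domain that lay under peaks, called the covered share, and the number of separate pieces into which the peaks broke it.

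H3K9me3 was measured by ULI-NChIP-seq, in which chromatin from few cells is cut with micrococcal nuclease and precipitated without fixation. The labels gave 74 libraries in 20 groups, each stage with precipitated and input libraries. The authors pooled the libraries of a stage and deposited 1 peak list per stage. The lists covered CC (4 precipitated libraries), SCNT embryos at 6 h post activation (6 hpa, 5 libraries), 14 hpa (4), the 2C (6), 4C (3) and 8C (7) stages and the morula (6). They also covered both lineages of SCNT blastocysts, trophectoderm (TE) and inner cell mass (ICM), and fertilized zygotes at pronuclear stage 5 (PN5), with 2 libraries each. Donor cells and oocytes came from B6D2F1 females, and all SCNT embryos had been activated in strontium chloride with cytochalasin B. PN5 zygotes came from a C57BL/6 cross and, by the study's methods, from an earlier publication, so embryo type, strain and study cannot be told apart in any comparison with PN5. Because each list was pooled, no value has a replicate error and no test across samples was possible. The 95% intervals below cover counting error over 1-kb units of length or over domains, and neighbouring units are not independent.

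H3K9me3 marks constitutive heterochromatin and silent repeats, and it is read by HP1 proteins that help to compact the chromatin. In somatic cells it also forms long domains over clustered gene families that the cell does not use, such as zinc finger, olfactory and vomeronasal receptor genes. Zinc finger genes are a well known example, in which the mark lies over the long exon that encodes the array of fingers. After nuclear transfer the donor chromatin is remodelled by the oocyte cytoplasm, and H3K9me3 that persists from the donor is known as a barrier to gene activation in the embryo.

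Windows of 150 bases are shown for 4 kinds of domain sequence, each from the middle of a long stretch of its kind with no annotated exon in the window. Some loci were not considered for this choice. They are shown as examples of sequence where the mark was kept or lost. Sequence is from the + strand of mm10, in lower case with CpG dinucleotides in capitals. The kept window, chr12:20230456-20230605, lay in an intron of the noncoding gene Gm49692, within a stretch of 7752 bp under peaks of all 10 lists. Its GC was 52.7% and it held 5 CpG. The CC-only window, chr7:10752047-10752196, lay in an intron of the vomeronasal receptor gene Vmn1r71, within 7792 bp that no other list covered. It had a GC of 26.7% and 1 CpG. The cleavage window, chr4:153208755-153208904, was intergenic and came from the longest domain, within 4027 bp under peaks from 6 hpa to 8C and not in ICM, TE or PN5. Its GC was 53.3%, with 3 CpG. The morula was not part of this choice, and morula peaks covered part of this stretch and of the window. The late window, chr13:61862220-61862369, was intergenic, within 5076 bp under peaks in ICM and TE but not at 2C, 4C and 8C or in PN5. Its GC was 34.7%, with 1 CpG.
kept: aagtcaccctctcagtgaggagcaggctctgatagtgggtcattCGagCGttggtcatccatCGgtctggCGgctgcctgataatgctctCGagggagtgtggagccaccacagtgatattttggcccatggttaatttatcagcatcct
CC only: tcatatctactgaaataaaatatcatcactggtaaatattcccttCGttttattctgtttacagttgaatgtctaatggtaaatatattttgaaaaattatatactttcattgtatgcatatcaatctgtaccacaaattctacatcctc
cleavage: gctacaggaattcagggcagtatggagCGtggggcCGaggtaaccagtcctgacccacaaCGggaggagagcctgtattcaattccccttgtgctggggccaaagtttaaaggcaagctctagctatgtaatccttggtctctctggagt
late: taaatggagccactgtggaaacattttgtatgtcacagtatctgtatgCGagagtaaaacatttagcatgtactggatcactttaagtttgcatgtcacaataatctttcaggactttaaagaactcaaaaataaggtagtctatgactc

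The domains were long and strongly clustered. Their lengths ran from 10004 to 274595 bp with a median of 14759 bp. There were 513 domains above 20 kb, 93 above 50 kb and 26 above 100 kb. The median fold enrichment over input that the authors' peak caller gave for CC was 3.16 in domains and 3.04 in peaks of 5 to 10 kb. Median GC was 43.1%, near the autosomal 41.9%. The median ratio of observed to expected CpG was 0.179. Soft-masked sequence, the part of the reference marked as repeats, took a median of 47.1% of a domain and 67.3% of a CC peak of 5 to 10 kb. Chromosome 7 held 558 domains (29.5%), chromosome 5 held 245 and chromosome 12 held 202, whereas chromosome 18 held 18. Another domain lay within 10 kb of 1019 domains. When domains separated by up to 500 kb were joined, 314 blocks resulted. Of these, 156 held a single domain, and the 20 blocks with the most domain length held 979 domains (51.7%). The peaks on either side of the 10000 bp limit overlapped in their covered share. At 6 hpa it ran from 7.90% to 94.0% in the 5 shortest domains and from 31.6% to 64.3% in the 5 longest peaks that missed the limit.

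Domains lost part of their marked length at 6 hpa, were covered most at 14 hpa and were covered less in all later lists. At 6 hpa, 56.6% of domain length was under peaks (95% Wilson interval 56.1 to 57.0). The covered share was 74.1% at 14 hpa (73.7 to 74.6). It was 42.5% at 2C (42.1 to 43.0), 38.5% at 4C (38.0 to 38.9) and 35.1% at 8C (34.7 to 35.6). The morula had 42.9% (42.4 to 43.3), ICM 33.02% (32.6 to 33.5) and TE 31.9% (31.5 to 32.4). PN5 was lowest with 20.7% (20.3 to 21.1). The order of 6 and 14 hpa depended on how much each list covered in all. When every list was trimmed to the covered length of the shortest by its −log10 q, the shares were 54.8% at 6 hpa and 51.0% at 14 hpa. Over the 19 autosomes the covered share was 56.9% ± 10.1 (SD) at 6 hpa, 75.5% ± 6.57 at 14 hpa and 44.3% ± 14.7 in ICM.

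Almost every domain held some peak in the 1-cell SCNT embryo, and most were covered over most of their length at 14 hpa. A domain with at least 50% of its length under peaks was counted as covered. At 6 hpa, 1035 of 1893 domains were covered (54.7%), against 25.4% of all autosomal CC peaks. At 14 hpa there were 1633 (86.3%), against 38.8%. With the lists trimmed to equal covered length the counts were 971 at 6 hpa and 915 at 14 hpa. The count was 677 at 2C (35.8%, against 19.6%), 576 at 4C (30.4%, against 22.8%) and 470 at 8C (24.8%, against 21.9%). It was 689 in morulae (36.4%, against 31.7%). In the blastocyst the domains no longer stood above CC peaks in general, with 546 in ICM (28.8%, against 31.1%) and 504 in TE (26.6%, against 29.1%). PN5 had 268 (14.2%, against 13.1%). A domain is long and so was more likely to meet some peak. Domains without any peak numbered 3 at 6 hpa, 1 at 14 hpa, 26 at 2C and 90 in ICM. In PN5 there were 306 (16.2%), against 74.8% of all CC peaks.

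**Figure D1:**
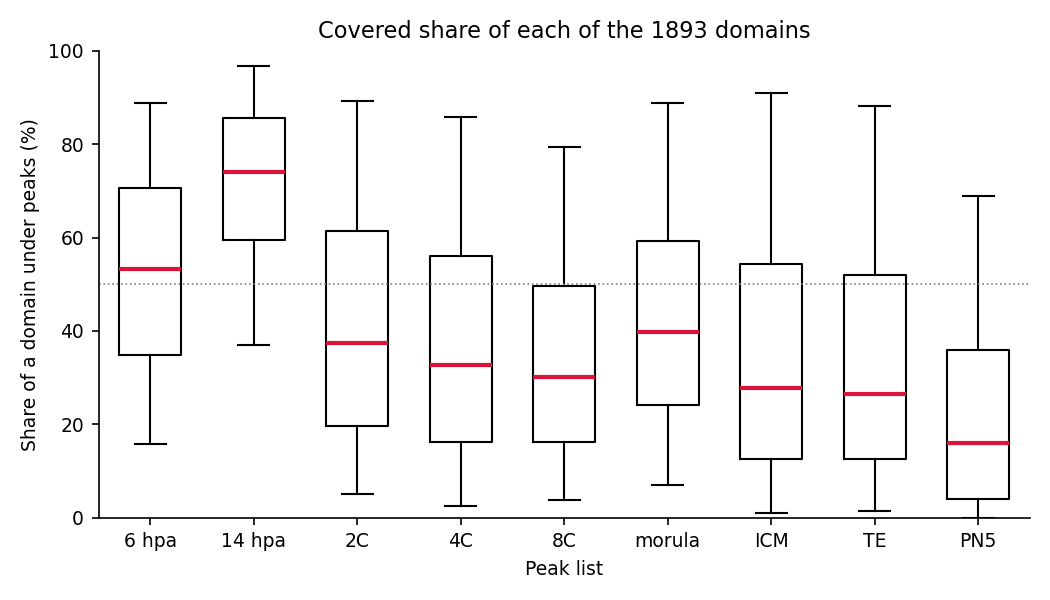
Share of each of the 1893 domains under H3K9me3 peaks (y axis, percent) in each of the other 9 peak lists (x axis). Boxes span the quartiles, red lines are medians, whiskers reach the 5th and 95th percentiles and the dotted line is 50%; the median domain was 53.2% covered at 6 hpa, 74.1% at 14 hpa and 27.8% in ICM.

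Compared with the next shorter CC peaks, domains were covered more in the 1-cell SCNT embryo, and less from 2C on and in PN5. The 4918 autosomal peaks of 5 to 10 kb served as the reference, since they are most like the domains. Domains exceeded them by 10.03 percentage points at 6 hpa (95% interval 9.31 to 10.8) and by 5.25 at 14 hpa (4.60 to 5.91). The latter was 1.99 with lists trimmed to equal covered length. The difference was −2.46 at 2C (−3.18 to −1.74), −4.10 at 4C (−4.82 to −3.39) and −4.86 at 8C (−5.56 to −4.16). It was −7.26 in morulae (−7.98 to −6.53), −14.8 in ICM (−15.5 to −14.1), −13.6 in TE (−14.3 to −12.9) and −9.28 in PN5 (−9.91 to −8.65). Domains were covered more than the shorter peaks on 17 of 19 autosomes at 6 hpa and on 3 of 19 in ICM. At 2C they were higher on 9 of 19, so the small deficit there was uneven along the genome. Below 10 kb the covered share rose with CC width in each of the 9 lists. In ICM it was 28.8% for peaks of up to 1 kb, 34.2% for 1 to 2 kb, 41.8% for 2 to 5 kb, 47.8% for 5 to 10 kb and 33.02% for domains.

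**Figure D2:**
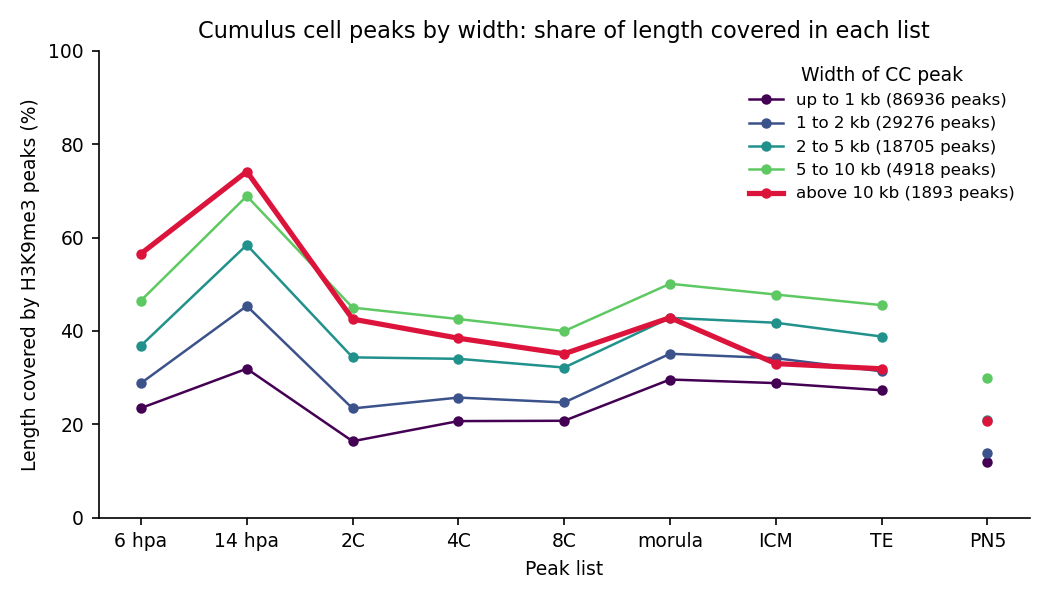
Share of the length of autosomal CC peaks under peaks of each other list (y axis, percent) for 5 width classes of CC peak; lines join the SCNT lists and PN5 stands alone. The red line of domains is highest at 6 hpa (56.6%) and 14 hpa (74.1%) and falls below the 5 to 10 kb class (47.8%) in ICM (33.02%).

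The deficit in late stages belonged to domains of moderate to high GC. Among regions with a GC of 45 to 50%, ICM covered 33.6% of the length of 538 domains and 68.1% of that of 1480 shorter peaks, a difference of −34.5 points (−35.7 to −33.3). At 6 hpa the same domains were 75.5% covered and the shorter peaks 70.4%. At 14 hpa the difference in this GC class was below 0, at −2.99 points (−3.88 to −2.10). For a GC of 50% and above it was −1.08 at 14 hpa (−3.88 to 1.72). Below a GC of 40% the sign was the other way in ICM, where 230 domains had 30.4% and 874 shorter peaks had 23.7%, a difference of 6.75 points (4.93 to 8.56). The difference was also above 0 in the other 8 lists for this GC class, between 2.17 in PN5 and 14.4 at 14 hpa. The shorter peaks of 5 to 10 kb held more soft-masked sequence, and its part in these differences was not tested.

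Domains seldom survived as 1 block. At 6 hpa they fell into 10878 pieces with a median of 5 per domain. The median piece was 1134 bp and the median gap between pieces 1014 bp. There were 1606 domains (84.8%) with 3 or more pieces. A region this long can hold several peaks by its length alone, and this count was not compared with that of other regions. Pieces in domains were longer than the peaks of these lists in general. The median autosomal peak was 563 bp at 6 hpa and 866 bp at 14 hpa. At 14 hpa there were fewer and longer pieces, with 8681 in all, a median of 4 per domain and a median piece of 1894 bp. The median number was 4 at 2C, 3 at 4C, 4 at 8C and in morulae, 3 in ICM and TE and 2 in PN5. The longest piece took a median of 20.4% of a domain at 6 hpa, 36.3% at 14 hpa, 11.9% at 8C and 8.48% in PN5. A single piece spanned at least 90% of 37 domains at 6 hpa, 147 at 14 hpa, 9 at 8C, 78 in ICM and 3 in PN5. Most broad peaks of the 1-cell lists met these regions. The 6 hpa list had 302 autosomal peaks above 10 kb, and 271 of them (89.7%) touched a CC domain. At 14 hpa it was 713 of 1006 (70.9%), at 2C 192 of 363 (52.9%), at 4C 133 of 367 (36.2%), at 8C 54 of 160 (33.8%) and in PN5 32 of 56 (57.1%).

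The longest domains broke up over the cleavage stages. The longest, chr4:153204388-153478982, covered 274595 bp upstream of and within Ajap1, a gene for an adherens junction associated protein. It was 1 peak in CC, 13 pieces at 6 hpa, 17 at 14 hpa, 44 at 2C, 58 at 4C and 83 at 8C. For its length it was little broken at 6 hpa, since all domains together had 2.74 pieces per 10 kb. The morula had 74 pieces, ICM 61, TE 62 and PN5 50. Its covered share was 96.5% at 6 hpa, 93.1% at 14 hpa, 86.4% at 2C, 77.5% at 4C and 63.9% at 8C. It was 61.0% in morulae, 24.7% in ICM, 24.98% in TE and 22.4% in PN5. So the mark thinned step by step into the morula and then dropped in both blastocyst lineages. The longest piece shrank from 81502 bp at 6 hpa to 10158 bp at 8C and 3441 bp in ICM. The next domains in length, chr4:153484681-153743993 and chr4:152847806-153085314, were its neighbours. They went from 93.4% and 90.9% at 6 hpa to 22.97% and 26.7% in ICM.

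**Figure D3:**
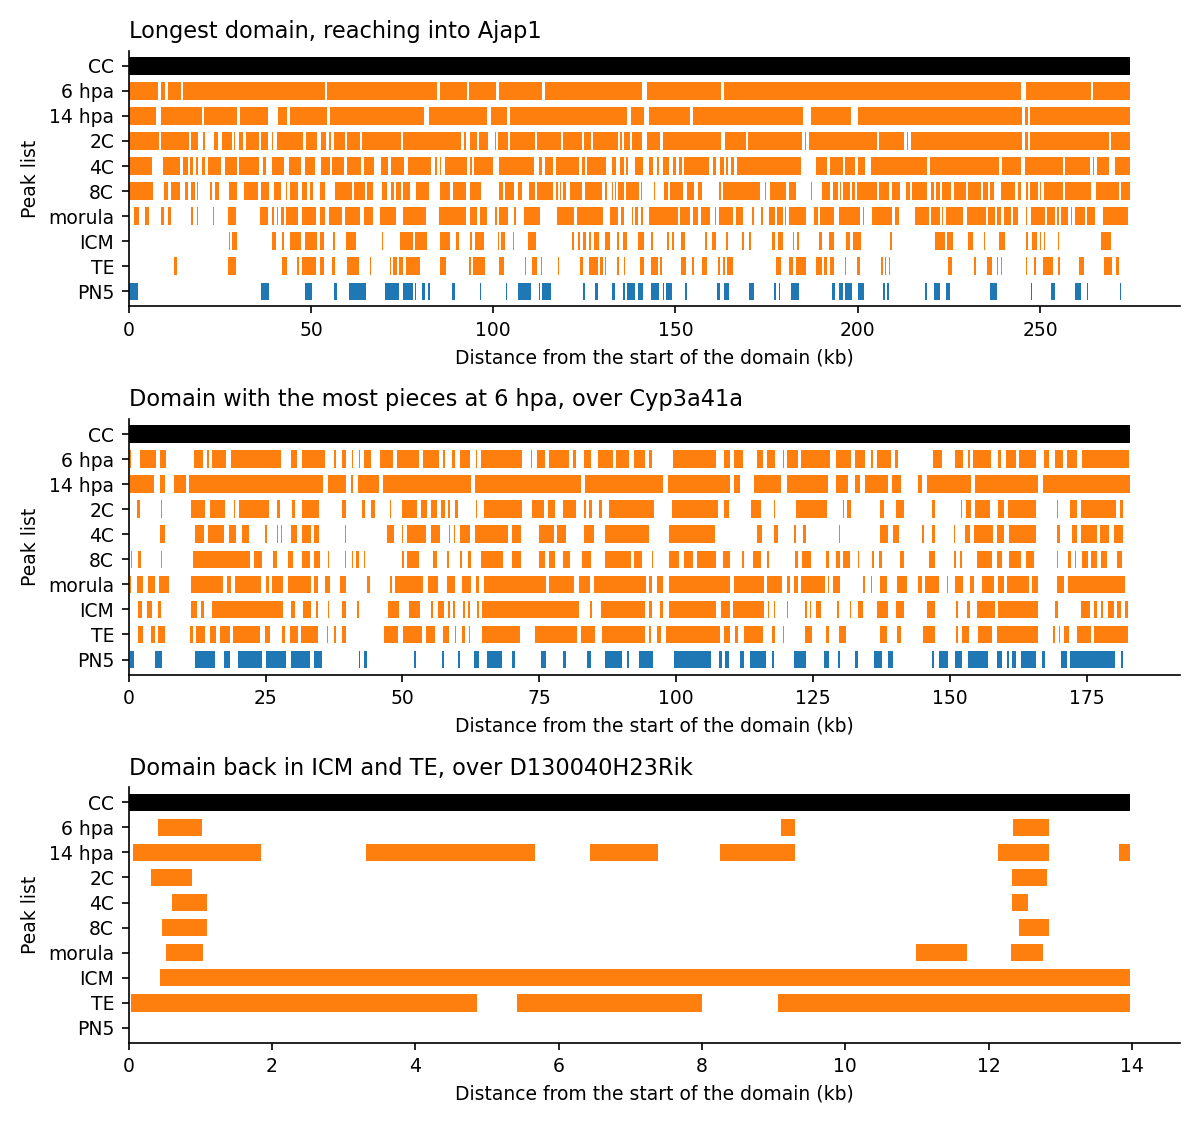
Peak pieces (bars) of the 10 lists (rows) inside 3 domains, by distance from the start of the domain (x axis, kb); black is CC, orange SCNT embryos and blue PN5. The longest domain went from 1 peak to 83 pieces at 8C, the domain over Cyp3a41a held 55 pieces at 6 hpa and 22 at 14 hpa, and the domain over D130040H23Rik was 96.8% covered in ICM after 12.1% in morulae.

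Other long domains followed either this course or a different one. The domain chr5:116784347-116947883 of 163537 bp, which held no protein-coding gene, went like those at Ajap1, from 82.6% at 6 hpa and 90.6% at 14 hpa to 39.8% at 8C, 44.7% in morulae and 17.0% in ICM. The domain chr5:145586679-145769490 of 182812 bp spans Cyp3a41a, a cytochrome gene of liver steroid and drug metabolism, the pseudogene Cyp3a63-ps and other pseudogenes. It held 55 pieces at 6 hpa, the most of any domain. It was covered to 62.4% at 6 hpa, 86.9% at 14 hpa, 39.0% at 8C, 66.5% in morulae, 52.8% in ICM and 54.8% in TE. It was thus below the longest domain from 6 hpa to 8C and above it from the morula on. PN5 covered 41.0% of it. The domain chr4:147207559-147406284 over zinc finger genes including Zfp988 was 76.7% covered at 6 hpa, 35.7% at 8C, 54.1% in morulae, 57.7% in ICM and 54.4% in TE, so its share rose again between 8C and the morula. On chromosome 5 a group of domains held copies of predicted protein-coding genes such as Gm7682. The domain chr5:94429125-94562057 over Gm7682 fell from 66.7% at 6 hpa and 83.9% at 14 hpa to 17.7% at 2C and 7.26% in TE. Near-identical copies can share reads, and how such reads were counted is not given in the sources used here, so values over these gene arrays are uncertain.

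Base composition separated kept from lost domains, and its part changed with stage. Across the 1893 domains the Spearman correlation of GC with covered share was 0.78 at 6 hpa, 0.60 at 14 hpa, 0.76 at 2C and 0.67 at 8C. It was 0.43 in morulae, 0.13 in ICM, 0.19 in TE and 0.36 in PN5. These are correlations across domains of the same pooled lists, which share input composition and clustering, and they carry no p. Domains with a GC below 40% (230) were 26.5% covered at 6 hpa, 16.5% at 2C and 30.4% in ICM. Domains with a GC of 45 to 50% (538) were 75.5%, 65.1% and 33.6% covered. The wide gap between GC classes in early embryos was therefore small in ICM. Signal in sequencing libraries varies with GC, and the part of GC in peak calling was not tested.

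**Figure D4:**
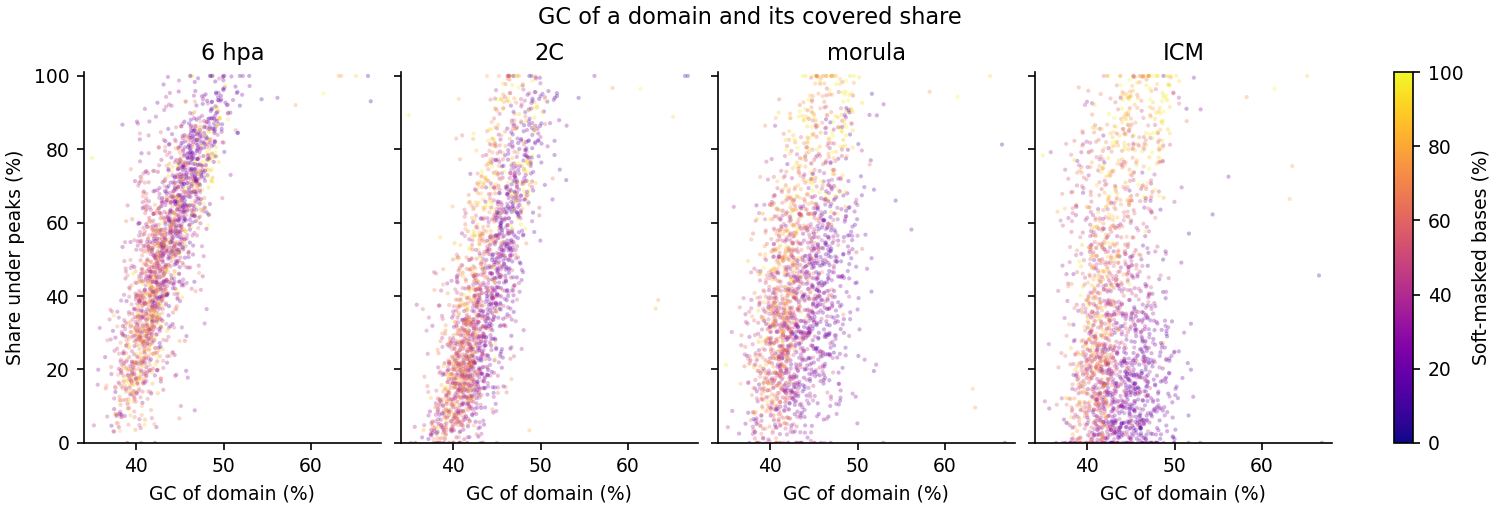
GC of each domain (x axis, percent) against its covered share (y axis, percent) at 6 hpa, at 2C, in morulae and in ICM; each point is 1 of 1893 domains, coloured by its soft-masked share. The Spearman correlation is 0.78 at 6 hpa, 0.76 at 2C, 0.43 in morulae and 0.13 in ICM, where the highly covered domains are mostly rich in soft-masked sequence.

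Repeat content took a different course. The correlation of the soft-masked share with covered share was −0.31 at 6 hpa, −0.07 at 14 hpa, −0.05 at 2C and 0.06 at 8C. It was 0.25 in morulae, 0.49 in ICM, 0.39 in TE and 0.30 in PN5. Domains under 33% soft-masked (569) were 69.4% covered at 6 hpa and 19.2% in ICM. Domains of at least 67% (478) were 46.1% covered at 6 hpa and 52.8% in ICM. Thus the repeat-poor domains were the better covered class at 6 hpa and the worse covered class in ICM. The CpG ratio went with covered share in each of the 9 lists, with correlations between 0.38 at 6 hpa and 0.61 at 2C. The 265 domains with a CpG ratio of at least 0.3 were 75.7% covered in ICM, 72.9% in TE and 50.1% in PN5. For the 1173 domains below 0.2 these values were 25.9%, 24.8% and 15.8%. CpG is depleted in most methylated mouse sequence.

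Bins of 500 bp were pooled over all domains, and bins were not compared with others of their own domain. They therefore cannot separate differences within domains from those between domains. Bins covered to at least 50% at 6 hpa had a median GC of 46.4%, and bins without a peak had 38.8%. In TE the values were 45.6% and 42.8%. Soft-masked sequence made up 40.6% of kept and 54.4% of unmarked bins at 6 hpa, but 58.6% and 38.7% in ICM. Bins inside domains were also kept more often than bins at the edges. Longer domains hold more of the deep bins, and domain length was not held equal. At 6 hpa 44.0% of the bins within 1 kb of a domain edge were kept and 61.2% of those more than 5 kb inside. At 14 hpa these shares were 61.1% and 78.04%. In ICM the share was 26.0% at the edge, 36.6% between 2 and 5 kb inside and 32.0% deeper. Stretches under peaks of all 9 other lists took 2.90 Mb (7.30% of domain length) in 2920 stretches, with a GC of 49.8%, a CpG ratio of 0.373 and 73.0% soft-masked sequence. Stretches in no other list took 4.92 Mb (12.4%) in 6502 stretches, with a GC of 37.0%, a CpG ratio of 0.132 and 50.5% soft-masked sequence. The kept and CC-only sequences printed above come from these sets.

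In the full lists, domain length was both lost and regained from stage to stage. Of the length covered at 6 hpa, 88.3% was covered at 14 hpa, and 55.7% of the length without a peak at 6 hpa had 1 at 14 hpa. In CC peaks of 5 to 10 kb these shares were 88.1% and 52.1%. With lists trimmed to equal covered length, 54.8% of domain length was covered at 6 hpa and 51.0% at 14 hpa. The steps from list to list were not recomputed with trimmed lists. From 14 hpa to 2C 53.3% was kept and 11.6% of the uncovered length was gained. From the morula to ICM 59.4% was kept, against 78.5% in CC peaks of 5 to 10 kb. From 14 hpa to ICM the shares were 38.8% in domains and 61.2% in the shorter peaks. Of the domain length covered in ICM, 74.1% was covered in TE, near the 74.0% kept from 8C to the morula. In the shorter peaks 83.1% of the length covered in ICM was covered in TE.

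Single domains followed a few paths. There were 158 domains (8.35%) covered to at least 50% in all 9 other lists, against 3.88% of all CC peaks and 20.5% of the peaks of 5 to 10 kb. Their median soft-masked share was 79.3%. At the other end, 207 domains (10.9%) were under 50% in all 9, against 37.1% of CC peaks and 19.9% of the shorter peaks. A path of early keeping and later loss was more frequent. It was met by 289 domains (15.3%) that were covered at 6 hpa, 14 hpa and 2C and under 50% in both ICM and TE, against 2.36% of all CC peaks and 6.47% of the shorter peaks. These had a median GC of 46.7%, a median soft-masked share of 24.5% and a median length of 18243 bp. The reverse, under 50% at 2C, 4C and 8C and covered in ICM and TE, was met by 119 domains (6.29%), near the 6.45% of all CC peaks. Gain between 6 and 14 hpa was seen in 615 domains (32.5%), against 21.2% of all CC peaks. This share was near the 31.4% of the shorter peaks. There were 1367 domains (72.2%) covered at 14 hpa and under 50% in PN5, against 27.9% of all CC peaks and 46.4% of the shorter peaks. Both counts rest on the full 14 hpa list. With trimmed lists 915 domains were covered at 14 hpa, and these paths were not recounted.

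The blocks as a whole followed different courses, and the spread among the domains within a block was not compared with that between blocks. The block chr4:152496580-153917457 around Ajap1 held 13 domains that filled 91.9% of its span. It was 92.4% covered at 6 hpa, 83.1% at 2C, 57.0% in morulae and 23.5% in ICM. A block on chromosome 5, chr5:125676578-129445517, held 68 domains, among them the 13 in Tmem132d and the 8 in Tmem132c, which encode transmembrane proteins. It went from 66.01% at 6 hpa and 77.3% at 14 hpa to 19.1% in ICM. The block chr7:38356301-43243662 held 107 domains over vomeronasal, zinc finger and predicted genes and had 48.6% at 6 hpa, 25.8% at 2C and 17.5% in ICM. In contrast the zinc finger blocks chr4:145431551-148268826 (45 domains) and chr13:65286209-67259676 (33 domains) rose from 34.4% and 27.4% at 8C to 49.3% and 50.9% in ICM. Smaller rises were seen in some blocks over other families. The block chr5:145313269-146604407 over Cyp genes went from 31.4% at 8C to 41.2% in ICM, and chr7:13708007-15842876 over Obox genes from 20.3% to 26.1%. The block chr14:3000338-7404246, with 92 domains over a family of predicted genes, was covered more in PN5 (42.9%) than in ICM (29.0%) and TE (17.1%). Of the 20 blocks, 2 had this order. The 156 domains that stood alone were 72.1% covered in ICM, whereas the 1313 domains in blocks of 10 or more were 27.8% covered. Those alone also had more soft-masked sequence, with a median of 78.8% against 41.9%, and shorter lengths.

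Zinc finger linkers within domains were mostly outside peaks at 6 hpa and mostly under peaks from the morula on. The conserved linker between neighbouring C2H2 fingers, in the codon forms that give its residues, was searched on both strands. It matched at 4489 autosomal places, and 1354 of them (30.2%) lay in domains, which took 1.61% of autosomal length. In the middle 10 kb of each domain, 72 of 1893 (3.80%) held 3 or more matches, against 0.212% of 246266 autosomal tiles of 10 kb. The stretch chr4:146124786-146124970 on the + strand of mm10 shows 3 linkers, in capitals, spaced 84 bases apart in a coding exon of Zfp987. It lay in the domain chr4:146116285-146234038, which held 25 matches. It was chosen by its number of matches, as an example of an array. The stretch was 15.1% covered at 6 hpa, 100% in each SCNT list from 14 hpa to TE and 0% in PN5.
Zfp987: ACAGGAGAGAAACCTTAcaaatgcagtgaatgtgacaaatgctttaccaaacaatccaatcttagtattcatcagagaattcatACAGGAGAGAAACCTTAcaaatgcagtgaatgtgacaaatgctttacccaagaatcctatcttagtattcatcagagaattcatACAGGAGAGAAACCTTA

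At 6 hpa 156 of the 1354 linker matches in domains (11.5%) were under peaks, although 56.6% of domain length was. The share was 51.1% at 14 hpa (31.6% with lists trimmed to equal covered length), 20.5% at 2C, 23.04% at 4C and 30.4% at 8C. It was 86.2% in morulae, 97.5% in ICM and 94.5% in TE, and 8.12% in PN5. The linkers thus went from the less to the more marked part of the domains between 8C and the morula. By domain, 113 held 3 or more matches. In 88 of them no match was under a 6 hpa peak, while in 104 every match was under an ICM peak. Over all 4489 autosomal matches the shares were lower but followed the same order, with 67.2% in CC, 10.2% at 6 hpa, 10.8% at 2C, 50.03% in morulae, 65.4% in ICM and 5.37% in PN5. The 113 domains as a whole were 46.9% covered at 6 hpa, 30.6% at 8C and 55.8% in ICM, and the 1768 domains without a match were 57.5%, 35.7% and 30.8% covered. Median GC in the 500 bp around these matches was 36.8%, and fingers are near-copies of each other, so matches are not independent. A match is a run of letters and does not show that a gene is active or intact. Of the 113 domains, 31 touched a gene of the zinc finger list and 52 touched any protein-coding gene.

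**Figure D5:**
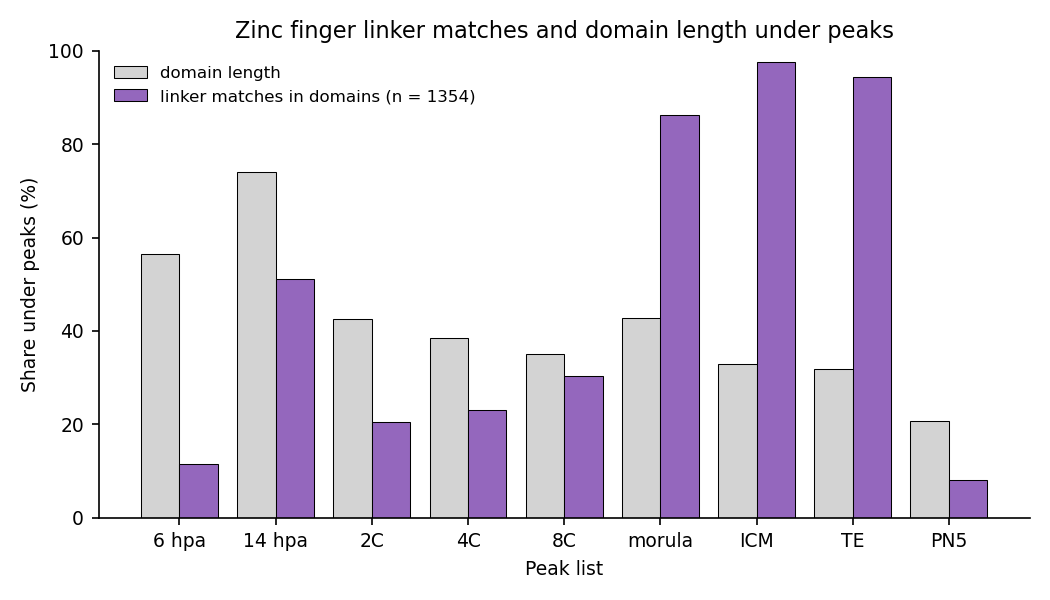
Share under H3K9me3 peaks (y axis, percent) of the length of all domains (grey) and of the 1354 zinc finger linker matches in domains (purple) in each list (x axis). The purple bar is below the grey one from 6 hpa (11.5% against 56.6%) to 8C and in PN5, and above it in morulae, ICM (97.5% against 33.02%) and TE.

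The domains that came back most in the blastocyst were chosen by the mean share of ICM and TE less the highest of 2C, 4C and 8C, so their return is a description. The domain chr8:69291245-69305214 over D130040H23Rik had 9.32% at 6 hpa, 50.1% at 14 hpa, at most 7.61% at the 3 cleavage stages, 12.1% in morulae, 96.8% in ICM and 88.2% in TE. It had no peak in PN5. The domain chr13:62360789-62379326 over the predicted gene Gm3604 had 17.4% at 6 hpa, 23.03% in morulae, 93.0% in ICM and 96.5% in TE. The other 3 were chr5:104576331-104590330, chr13:61849832-61864832 over the pseudogene Gm7240 and chr8:69362788-69375081 over the pseudogene Gm10033. All 5 had a GC of at most 40.1%, below the median of 43.1%.

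At the other end, a few domains stayed under peaks over most of their length in all 9 lists, though in some lists in more than 1 piece. Those at Smok2a and the Ugt1a genes are given for their high PN5 share. The domain chr4:123769648-123779882, 7991 bp from Rhbdl2 and free of annotated genes, had the highest mean share. It was 100% covered at 6 hpa, at least 92.7% from 14 hpa to TE and 86.4% in PN5, and its soft-masked share was 77.5%. The domain chr19:29684585-29694613, near Mlana, was 93.6% soft-masked and at least 87.1% covered in the 9 lists. The domain chr3:93201836-93220278 lay wholly in the long exon of Flg2, a filaggrin family gene of the epidermis, and had 92.0% at 6 hpa, 94.2% in ICM and 97.1% in PN5, the highest PN5 share of all domains. The domain chr17:13177016-13245745 over Smok2a and Smok2b, kinase genes of the sperm, was 95.6% covered in PN5. In SCNT embryos it had 94.6% at 6 hpa, 87.1% at 14 hpa and 31.0% in ICM, so the 1-cell lists of both embryo types were high and the blastocyst was low. In chr1:88211412-88224610 over the Ugt1a genes, which encode glucuronosyltransferases from a shared locus, PN5 covered 95.2%, 6 hpa 92.7%, 14 hpa 63.6% and ICM 34.9%. No domain lacked a peak at 6 hpa, 14 hpa and 2C together. The lowest mean share, picked after the values were seen, was that of chr7:42347387-42357996 over the pseudogene Gm5594, with 23.4% at 6 hpa, none at 14 hpa and none in ICM or PN5.

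Few genes lay in the domains. By length they were 67.5% intergenic, 28.4% intronic and 4.06% exonic, against 52.8%, 42.2% and 4.96% of the autosomes. No annotated gene lay in 792 domains (41.8%), and 563 touched a protein-coding gene. Of 20807 autosomal protein-coding genes, 227 had at least 50% of their body in domains, or 1.09%. This share was 5.20% for pseudogenes (603 of 11594), 12.8% for immunoglobulin variable segments (28 of 218) and 7.70% for small nucleolar RNA genes (111 of 1442). Members of clustered families were frequent among the 227. They included 26 of 417 zinc finger genes, 18 of 208 Vmn1r and 5 of 119 Vmn2r vomeronasal receptors, 12 of 100 Cyp genes, 9 of 38 prolactin and pregnancy-specific glycoprotein genes and 9 of 34 secretoglobins. Of small families, 5 of 7 Obox homeobox genes of the oocyte, 3 of 17 Nlrp genes and 8 of 25 genes known from 2C were in domains. The olfactory receptors, a larger clustered family, had 2 of 1128. None had 50% of its body in domains among 39 Hox, 53 keratin, 60 Serpin, 64 defensin, 35 taste receptor, 26 Klr and 15 Taar genes. The same held for Sprr (15), Skint (11), Speer (10) and Ear (5) genes, and for 23 cadherin genes, of which 2 overlapped domains. There was also none among 14 genes of the cumulus and granulosa program, 14 heterochromatin factors and 7 imprinted genes. Protocadherins had 1 of 67, Prame-like genes 1 of 15, and Ugt and Mup 1 of 22 each, and the Rhox list has no autosomal gene. With any overlap counted, there were 23 protocadherins and 9 Ugt genes. Members of a family share sequence and neighbours, so these counts describe loci more than single genes.

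The families differed in how their bodies were covered in the embryo. The 8 genes of the 2C list, a list named for expression at that stage in fertilized embryos, comprise 6 Zscan4 copies with Tdpoz3 and Usp17lb. Zscan4-ps1, Zscan4-ps2 and Zscan4-ps3 among the copies bear pseudogene names. They were 33.8% covered at 6 hpa and 44.0% at 14 hpa, and 3.90% at 2C, 0.768% in ICM and 0% in PN5. Zscan4c was 33.4% covered at 6 hpa, 34.5% at 14 hpa and 0% at 2C and 4C, and Zscan4f had 53.7%, 32.7% and 0%. Tdpoz3 was the exception at 2C, with 100% at 14 hpa, 95.9% at 2C, 94.5% at 8C and 0% in morulae. Usp17lb had 79.0% at 14 hpa and 6.82% at 2C, but 54.6% at 8C and 65.7% in morulae. Zscan4b had 25.5% at 8C. The 26 zinc finger genes had 46.1% at 6 hpa, 22.6% at 2C, 22.99% at 8C, 38.6% in morulae and 42.7% in ICM. Zfp110 was 35.0% covered at 6 hpa, 20.6% at 2C and 87.1% in ICM, and Zfp873 had 38.5%, 17.5% and 85.5%. Of the 26, 6 are the Zscan4 copies, which had at most 5.54% in ICM. The 9 secretoglobins had 86.5% at 6 hpa, 60.8% at 2C, 16.6% in ICM and 45.1% in PN5. The 9 placental glycoprotein and prolactin genes had 71.4%, 56.1%, 19.6% and 16.2%. The 18 Vmn1r genes were low throughout, with 27.0% at 6 hpa, 33.4% at 14 hpa, 9.69% at 2C and 7.07% in ICM. The 5 Obox genes were 43.7% covered at 6 hpa, 73.5% at 14 hpa, 23.3% at 2C and 6.21% in PN5, and Obox6 fell from 98.5% at 14 hpa to 0% at 2C. The 12 Cyp genes had 46.4%, 65.1%, 24.1% and 13.8%.

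The genes with the most bases in domains were mostly long genes, several of them known from the nervous system. Tmem132d, on chr5:127781630-128433077, had 604302 bp in 13 domains, or 92.8% of its body. Its body was 70.0% covered at 6 hpa, 79.9% at 14 hpa, 42.9% at 2C, 31.8% at 8C, 14.7% in ICM and 5.84% in PN5. Asic2, an acid-sensing ion channel gene, had 427029 bp in 22 domains and went from 47.8% at 6 hpa to 11.1% in ICM. Myo18b, a myosin gene of muscle, had 79.4% at 6 hpa, 73.1% at 2C, 58.7% at 8C and 11.9% in ICM. The cadherin genes Cdh13 and Cdh4, Sdk1, a synaptic adhesion gene, Csmd2, Tmem132c and C130026I21Rik went the same way, with ICM shares between 9.20% and 26.0%. Each of these 9 genes was covered less in ICM than at each SCNT stage before it. Obox3, the other of the 10, was 42.8% covered at 6 hpa, 25.5% at 2C and 37.1% in ICM.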

How the data were processed

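By the study's methods and the submitters' processing notes, the authors trimmed paired reads with Cutadapt 1.16, aligned them to mm10 with BWA mem, merged the libraries of a stage with SAMtools, removed duplicates and drew the same number of reads per stage with Picard, and called broad peaks over input with MACS2. The MACS2 threshold, the tool versions other than that of Cutadapt and the treatment of reads with several alignments are not given in the sources used here. Each deposited peak carries a score, a fold enrichment (a ratio to input) and a −log10 q value from the authors' peak caller. The lists give no read totals, and depth is known only as equal by design. Sequence outside peaks may still carry the mark at a level these calls miss.

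Peaks of each list were merged, and bases of domains under merged peaks were counted in Python 3.11.15 with numpy 2.4.6 and scipy 1.17.1, by code tested on simulated intervals. Shares have Wilson 95% intervals over 1-kb units or domains, and differences have normal-approximation intervals. Sequence was taken from GRCm38.p6 after a check of chromosome lengths, and genes were GENCODE M21. Coordinates are 1-based. A gene was in domains when they held at least 50% of its body. Bins were 500 bp, and blocks joined domains over gaps of up to 500 kb. Named domains were the 10 longest, the 5 with the highest mean share, the 5 most returned in ICM and TE, the 5 with the highest PN5 share, the 3 with the most pieces at 6 hpa and the 5 on either side of the limit. Named genes overlapped these, had the most bases in domains or belonged to fixed lists by symbol. The members and lists were chosen with earlier results of these data known. The linker search was added after the data were seen, and its codon forms were narrowed once after first values were known. Peaks on X and Y were counted only.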

Additional observations from a re-analysis of the deposited data

Results flagged for a closer look

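Chromosome X, which the autosomal rule leaves out, carried 482 CC peaks above 10000 bp, over 10.2 Mb. Their number is above the 3 regions taken as the limit of a count of 0, whereas chromosome Y had 2. The X domains were 41.9% covered at 6 hpa, 71.5% at 14 hpa, 29.5% at 2C, 28.9% at 4C, 29.6% at 8C, 46.4% in morulae, 46.0% in ICM, 33.8% in TE and 9.95% in PN5. Autosomal domains were covered to 33.02% in ICM and 31.9% in TE, and the difference between X and autosomes was not tested.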

How the results depend on the processing

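The direction of every difference from peaks of 5 to 10 kb was the same under the alternatives run, none of which reversed. Covered shares moved in 42 of 45 cases by more than their counting interval. With a −log10 q minimum of 2 for every peak, which left 1893 domains, the covered share was 53.2% at 6 hpa, 71.8% at 14 hpa, 40.3% at 2C, 33.02% at 4C and 26.8% at 8C, 38.3% in morulae, 31.3% in ICM, 29.3% in TE and 15.2% in PN5. The differences were then 6.03 points at 14 hpa, −3.38, −5.61 and −7.09 at 2C, 4C and 8C, −8.62 in morulae and −14.4 in TE. With lists trimmed to the 133.7 Mb of the shortest, the shares were 54.8%, 51.0%, 42.0%, 33.4% and 29.6% from 6 hpa to 8C, 31.4% in morulae, 27.5% in ICM and 28.0% in TE. The differences were 1.99 points at 14 hpa, −5.41 and −6.16 at 4C and 8C, −10.2 in morulae, −16.1 in ICM and −14.6 in TE, and 915 domains were covered at 14 hpa. The linker shares under this trimming, an alternative added after seeing the data, were 9.68% at 6 hpa, 31.6% at 14 hpa, 18.5% and 22.8% at 4C and 8C and 80.5% in morulae. In the 918 domains above 15 kb the covered share was 59.0% at 6 hpa, 75.7% at 14 hpa, 34.6% at 8C, 41.9% in morulae, 29.8% in ICM, 29.0% in TE and 18.5% in PN5. Merging CC peaks over gaps of up to 1 kb gave 2895 domains with 46.4%, 64.8%, 35.1%, 32.0% and 29.6% from 6 hpa to 8C, 37.1% in morulae, 29.1% in ICM, 27.8% in TE and 18.2% in PN5. Without chromosomes 7 and 5, the 1090 other domains had 59.0%, 76.7%, 48.5%, 44.7%, 40.7%, 48.3%, 38.5%, 37.4% and 25.3% in the same order. At a limit of 25% of a domain, 1637 domains were covered at 6 hpa, 1258, 1158 and 1138 at 2C, 4C and 8C, 1394 in morulae, 1017 in ICM, 982 in TE and 701 in PN5. At 75% there were 357 at 6 hpa, 910 at 14 hpa, 253, 207 and 141 at the cleavage stages, 229 in morulae, 261 in ICM, 214 in TE and 73 in PN5. Protein-coding genes numbered 429 with any overlap and 143 at 90% of the body. The cause of these shifts was not tested, except that a stricter limit counts fewer by construction. The median number of pieces did not change when pieces closer than 500 bp were joined. The median gap between pieces was 917 bp at 14 hpa, the shortest of the 9 lists, and 1623 bp in ICM, the longest. Most gaps were thus longer than 500 bp, so this joining was a weak check of the piece counts. Bins of 1 kb left the sign of each GC difference.

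No paired analysis was possible because the authors pooled replicates before calling peaks, so no library was left out either, and a deviant one stays unseen. How reads were shared between near-identical copies, frequent in these domains, was not tested.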
